A study of Caenorhabditis elegans with 2 samples.

Results

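The genes described here encode the proteins of the cytosolic ribosome of the nematode Caenorhabditis elegans. They were chosen by name, as protein-coding genes whose symbols begin with rpl- (large subunit) or rps- (small subunit), together with rla-0, rla-1 and rla-2, which encode the acidic stalk proteins of the large subunit. In the Ensembl annotation of the WBcel235 assembly this gave 81 of 19973 nuclear protein-coding genes, 50 for the large and 31 for the small subunit. The question was where a tagged transcription factor, MXL-1, left chromatin immunoprecipitation peaks at these genes.

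The large subunit joins amino acids and the small subunit reads the messenger RNA, and a growing animal makes both in large amounts. Some ribosomal protein genes carry small nucleolar RNA (snoRNA) genes in their introns, whose products guide the chemical modification of ribosomal RNA. MXL-1 is a worm relative of Max, a basic helix-loop-helix leucine zipper protein that pairs with partners such as the Mad-like MDL-1 and binds the E-box CACGTG. In flies and mammals the Max partner Myc is known for raising the expression of genes for ribosome production.

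Chromatin came from whole hermaphrodite young adults of strain OP537 (unc-119(tm4063) III; wgIs537), grown for 67 h after synchronisation as starved L1 larvae. The line stably carries an MXL-1 transgene with a C-terminal GFP-FLAG tag, and the immunoprecipitation used an antibody against GFP. The 2 biological replicates formed 1 group, both carried the unc-119 mutation, and no untagged or wild-type worms were analysed, so no condition could be compared with another. What drives the transgene is not given in the sources used here, and a peak in whole animals averages over all their cells.

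The deposited peak lists on ce11 were read: the thresholded list with 557 peaks, the pooled list with 14200, and replicates 1 and 2 with 20313 and 21882. A summit is the highest position of a peak, and the signal is the authors' own value per peak, on no stated scale, so signals were compared only within a list. The thresholded peaks are the strongest of the pooled list by signal, from 67.7 upwards. The pooled list is described as peaks with background, so a weak entry in it may be no binding site. A summit was given to a gene if it lay between 1000 bp upstream of a transcript start and the gene end. This window was called promoter to 200 bp downstream of a start, 3′ end in the last 200 bp of the gene, and gene body in between. Without read totals the depth of sequencing is unknown. Intervals are exact (Clopper-Pearson, 95%) and cover only the counting of genes or peaks.

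The promoter peaks of rpl-3, rpl-15 and rpl-35 are shown first as sequence, because they share a stretch of letters. Each line below holds 201 bases centred on the summit, written 5′ to 3′ on the strand of the gene, from the RefSeq WBcel235 genome, which ce11 names. Capitals mark AGCGTGTTT. The rpl-3 stretch is chrIII:3867429-3867629 (plus strand), rpl-15 is chrIV:654829-655029 (minus strand) and rpl-35 is chrIII:7854597-7854797 (plus strand).
rpl-3: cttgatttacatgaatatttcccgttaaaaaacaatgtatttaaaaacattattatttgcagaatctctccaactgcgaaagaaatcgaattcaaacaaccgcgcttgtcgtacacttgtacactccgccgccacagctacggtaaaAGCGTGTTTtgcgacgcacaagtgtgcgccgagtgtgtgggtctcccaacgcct
rpl-15: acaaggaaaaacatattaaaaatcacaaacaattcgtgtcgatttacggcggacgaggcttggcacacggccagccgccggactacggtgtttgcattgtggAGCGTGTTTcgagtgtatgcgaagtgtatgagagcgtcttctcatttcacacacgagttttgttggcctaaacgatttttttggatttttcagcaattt
rpl-35: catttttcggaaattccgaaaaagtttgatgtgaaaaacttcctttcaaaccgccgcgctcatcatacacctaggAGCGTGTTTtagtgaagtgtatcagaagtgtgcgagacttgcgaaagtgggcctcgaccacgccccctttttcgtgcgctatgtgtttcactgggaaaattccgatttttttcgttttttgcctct

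AGCGTGTTT was the only word of 9 letters, counted on both strands, that occurred in 3 or more of the 9 windows of 201 bases around thresholded summits of ribosomal protein genes. Those windows held 1706 different words, of which 27 occurred in 2 or more windows. In rpl-3, rpl-15 and rpl-35 the word lay on the gene's own strand, 278, 351 and 462 bp before the transcript start. It began 47 bp downstream of the summit in rpl-3, 2 bp downstream in rpl-15 and 25 bp upstream in rpl-35. In the same order, the nearest replicate 1 summits lay 47, 24 and 157 bp from it, and the replicate 2 summits 55, 7 and 13 bp. At rpl-35 the word was thus outside the 201 bases around the replicate 1 summit. Outside the ribosomal protein genes, 2 of 541 thresholded windows (0.37%) held the word. Among pooled windows it was in 4 of 103 at ribosomal protein genes and in 22 of 14090 elsewhere (0.156%). The fourth was at rpl-18, a large subunit gene, whose summit of signal 26.7 lay 81 bp before the start. In the 1001 bases up to the transcript start, 4 of 81 ribosomal protein genes (4.94%) and 168 of 19892 other genes (0.845%) held it. The word was picked because it occurred at rpl-3, rpl-15 and rpl-35, so each share of ribosomal protein genes or peaks holds these 3 by choice. Of the 4 genes only rpl-18 was not among those it was picked from. The shares therefore cannot show that the word is more common at ribosomal protein genes.

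The stretches around the word are set side by side because a second word, AAGTGT, followed it within 30 bases in 3 of the 4 genes. It began at base 11 after the word in rpl-3, base 13 in rpl-15 and base 6 in rpl-35, and rpl-18 lacked it. The stretches of 59 bases are chrIII:3867556-3867614 (plus) for rpl-3, chrIV:654889-654947 (minus) for rpl-15, chrIII:7854652-7854710 (plus) for rpl-35 and chrIV:13777768-13777826 (plus) for rpl-18, on ce11, with the first word in capitals.
rpl-3: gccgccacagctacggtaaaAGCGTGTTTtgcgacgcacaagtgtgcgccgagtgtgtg
rpl-15: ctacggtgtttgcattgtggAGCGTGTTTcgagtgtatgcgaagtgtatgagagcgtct
rpl-35: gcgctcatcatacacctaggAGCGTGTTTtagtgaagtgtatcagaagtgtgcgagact
rpl-18: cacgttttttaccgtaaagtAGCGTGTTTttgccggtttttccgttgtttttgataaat

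Upstream of all other genes the first word occurred 169 times, and AAGTGT followed within 30 bases in 3 of them. One of these 3 is the rpl-15 site itself, read from its divergent neighbour K11H12.8. The second, upstream of cdc-48.1, lay 28 bp from a pooled summit of signal 51.1, with replicate summits of 18.4 and 27.8 at 19 and 30 bp. The third, upstream of nprl-3, had its nearest pooled summit 10072 bp away. Words of 7 and 8 letters were looked at as well, and AAGTGT with its limit of 30 bases was picked by eye from these sequences. The counts therefore describe these genes and test nothing.

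None of the 9 thresholded windows inside or upstream of these genes held CACGTG, against 34 of 541 thresholded windows elsewhere (6.28%). Of 10 further thresholded peaks within 200 bp past the end of a ribosomal protein gene, 1 held it, at rpl-31. Of the 103 pooled windows 3 held it (2.91%), at rps-5, rpl-13 and rpl-24.1, against 712 of 14090 elsewhere (5.05%). In the 201 bases ending at the transcript start it was in 0 of 81 ribosomal protein genes and in 4.22% of all protein-coding genes. Of the other words searched, CACATG was in 0 of the 9 thresholded windows and in 12.8% of those elsewhere, but in 6.80% of pooled windows at these genes against 7.65% elsewhere. Upstream of the start it was in 9.88% of ribosomal protein genes and in 6.59% of all genes. The word CGCGCA was likewise in 0 of the 9 (10.7% elsewhere), in 4.85% of pooled windows (5.15% elsewhere) and upstream in 6.17% (4.26% of all genes). For CACTGC the same shares were 0 of the 9 (12.2%), 2.91% (6.69%) and 4.94% (4.42%). Part of an internal promoter element of tRNA genes, the word GTTCGA was in 1 of the 9, at rla-1, and in 44.0% of those elsewhere, in 8.74% of pooled windows (9.79% elsewhere) and upstream in 4.94% (6.17% of all genes). Both strands were read for each word. None of the pooled peaks at ribosomal protein genes had a tRNA gene within 250 bp of the summit.

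Thresholded summits fell in the windows of 8 of the 81 ribosomal protein genes (9.88%, interval 4.36 to 18.5%), against 404 of 19892 other genes (2.03%). Over all genes the share was 2.06%. The promoter peaks belonged to rpl-3, rpl-15, rla-1, rpl-35 and rpl-22, the gene body peaks to rpl-7 and rps-13, and the 3′ end peaks to rpl-3 and rpl-12. Thus rpl-3 had a strong peak at either end. Of the 8 genes, 7 encode large subunit proteins and 1, rps-13, a small subunit protein.

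rpl-3 (WBGene00004414) encodes a large subunit protein that reaches towards the catalytic centre. Its promoter peak, chrIII:3867309-3867748, had signal 158.7, the 47th strongest in the list, with its summit 325 bp before the start. The replicates placed summits 0 and 8 bp away, of signal 74.1 in replicate 1 and 83.8 in replicate 2. The second peak, chrIII:3869320-3869759, had signal 112.4 and its summit in the 3′ untranslated region, 47 bp before the gene end. Replicate signals there were 54.8 and 58.7. Both replicates thus ranked the promoter peak of rpl-3 above its 3′ end peak, and above every other peak in these gene windows.

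At rpl-15, rpl-35 and rpl-22, all of the large subunit, the thresholded summit lay upstream of the gene. The rpl-15 peak (WBGene00004427, chrIV:654709-655148) had signal 104.1, 353 bp before the start, with 65.8 in replicate 1 and 42.7 in replicate 2. For rpl-35 (WBGene00004449, chrIII:7854477-7854916), which encodes a protein beside the exit of the peptide tunnel, the signal was 95.1, 437 bp before the start. Its replicate signals were 47.0 and 51.7, the first of them 132 bp from the pooled summit. The rpl-35 peak was thus the only one of the 9 without a summit within 100 bp in both replicates. The rpl-22 peak (WBGene00004434) had signal 82.6, 243 bp before the start, with replicate signals of 45.8 and 33.2. Its nearest transcript start was that of the neighbour ify-1, 194 bp away, so the position does not tell the 2 genes apart.

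Inside the genes, rla-1 (WBGene00004409), one of the stalk proteins that recruit elongation factors, had a summit of signal 97.7 in a coding exon 188 bp after the start. The replicate signals at rla-1 were 52.0 and 55.2. rpl-12 (WBGene00004424), whose protein forms the base of the stalk in yeast and bacteria, had a summit of signal 85.2 in its 3′ untranslated region, 44 bp before the gene end. Both replicates gave 43.9 there, and the nearest start was that of tag-115, 217 bp away. At rpl-7 (WBGene00004418) the summit of signal 84.8 lay in an intron, inside the snoRNA gene F53G12.12, with replicate signals of 37.9 and 42.4 at the nearest summits. At rps-13 (WBGene00004482) the signal was 82.8, in a coding exon 105 bp from the snoRNA gene C16A3.11, with replicate signals of 31.2 and 53.4. These 2 were the only thresholded peaks of the 9 with a small RNA gene within 250 bp of the summit.

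**Figure D1:**
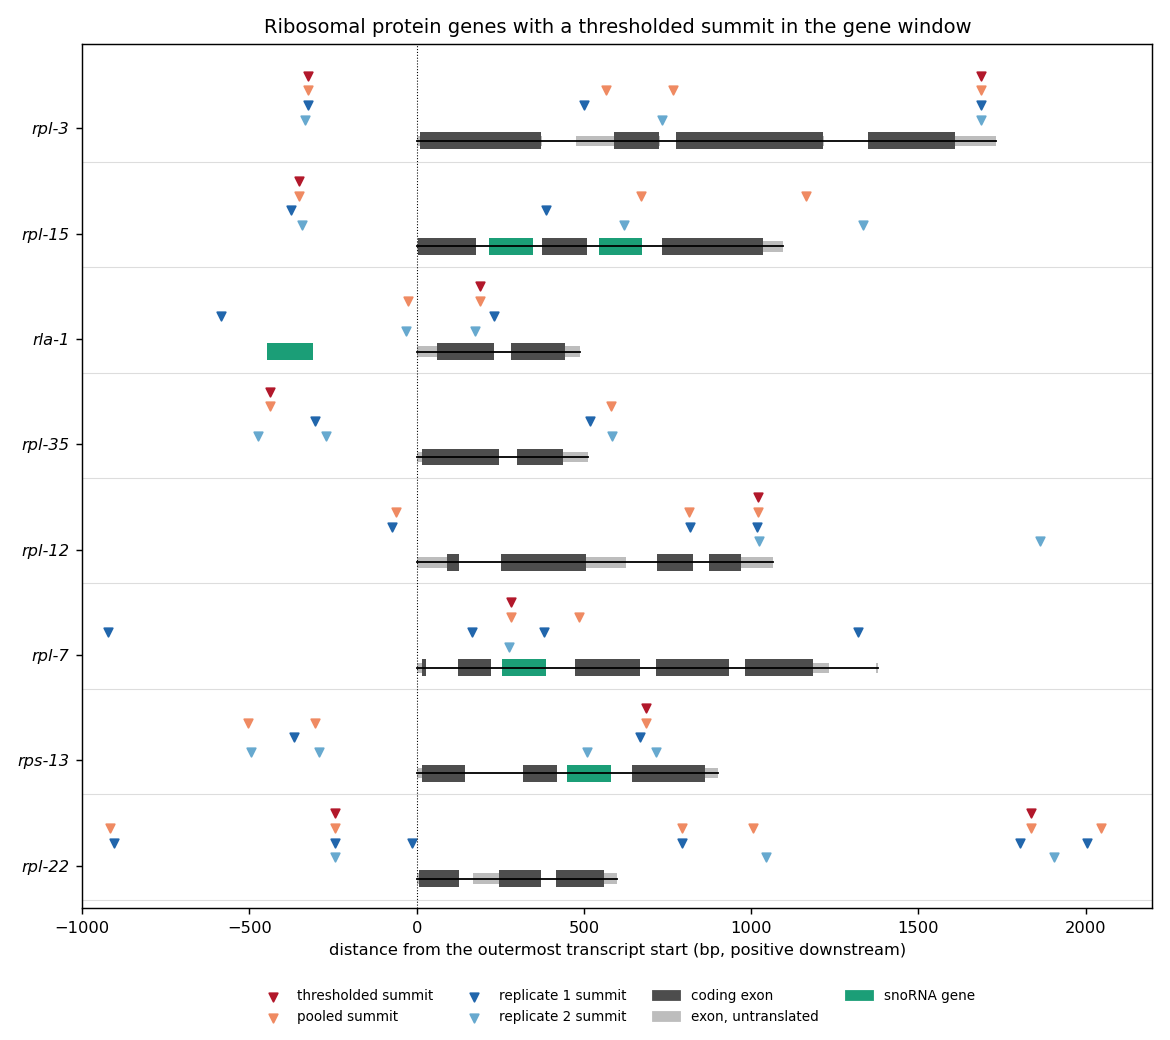
Maps of the 8 ribosomal protein genes with a thresholded summit in the window, in order of signal from the top, with distance from the outermost transcript start in bp. Triangles mark summits of the thresholded, pooled, replicate 1 and replicate 2 lists, including those of neighbouring genes; dark blocks are coding exons, pale blocks untranslated exon and green blocks snoRNA genes on the same strand. The thresholded summits lie upstream in rpl-3, rpl-15, rpl-35 and rpl-22, inside the gene in rla-1, rpl-7 and rps-13, and near the gene end in rpl-3 and rpl-12.

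In the gene window, the genes just below the threshold were of both subunits. The weakest thresholded peak of the 8 genes had signal 82.6, and the next genes were rps-1 and rps-30, at 65.5 each. After them came rpl-17 at 62.5, whose protein lines the peptide tunnel, rpl-20 at 62.2, rpl-30 at 61.6 and rps-7 at 57.7. The last of the 10 strongest below the threshold were rps-12 at 53.7, rps-4 and rps-16 at 51.0 each, and rps-17 at 50.9. Of these 10 genes 7 encode small subunit proteins, where 31 of all 81 genes do. Their summits were spread over promoters (rps-1, rpl-20, rpl-30, rps-16), gene bodies (rps-4, rps-17) and 3′ ends (rps-30, rpl-17, rps-7, rps-12). Outside the window, rps-4 and rpl-30 had thresholded peaks of signal 102.1 and 92.0 just past their ends.

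The replicates ordered these genes differently. The summit nearest that of rpl-20 had signal 14.1 in replicate 1 (rank 15643) and 47.4 in replicate 2 (rank 296). At rpl-30 the order was turned round, with 38.4 (rank 455) and 13.2 (rank 20213). At rps-1 the 2 replicates gave 29.4 (rank 1067) and 34.5 (rank 735), so that gene was high in both. The rpl-30 summit lay in an intron of its neighbour pab-1.

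Among the 557 strongest summits of replicate 1 were 11 ribosomal protein genes (13.6%), against 2.16% of all genes. Replicate 2 also gave 11, against 2.13% of all genes. Both sets held 7 genes, namely rpl-3, rpl-7, rpl-12, rpl-15, rpl-35, rla-1 and rps-7, where 1.19% of all genes were in both. At rps-7 the strongest summit was at the 3′ end in replicate 1 (42.8) and in the gene body in replicate 2 (39.6), so the gene but not the place was shared. The strongest summits of rpl-7 also differed, at 167 bp after the start in replicate 1 (50.5) and 277 bp after it in replicate 2 (42.4). At rpl-35 the strongest summits were both upstream, at -305 bp from the start in replicate 1 and -475 bp in replicate 2. Those of rla-1, at 231 and 174 bp after the start, lay on either side of the promoter limit of 200 bp. The 4 genes seen only in replicate 1 were rpl-17, rpl-22, rpl-30 and rps-16, and the 4 only in replicate 2 were rpl-19, rpl-20, rps-13 and rps-30.

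**Figure D2:**
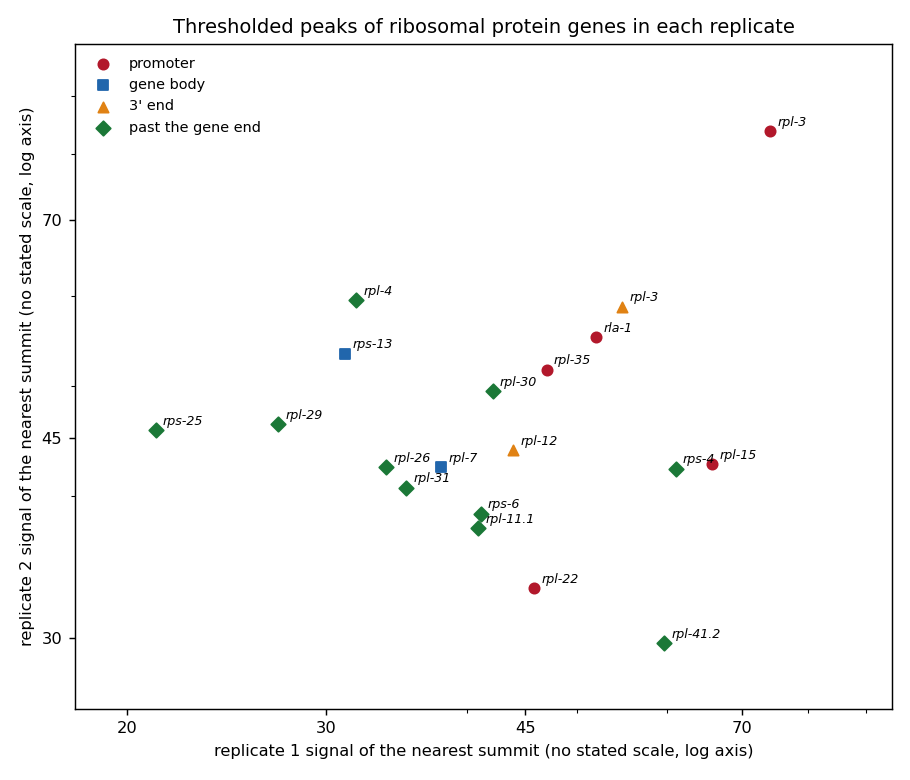
Signal of the nearest summit in replicate 1 (horizontal) and replicate 2 (vertical), both on log axes without a stated scale, for the 9 thresholded peaks in gene windows and the 10 within 200 bp past a gene end. The promoter peak of rpl-3 is highest in both, at 74.1 and 83.8, while rps-25, with 21.2 and 45.7, and rpl-41.2, with 59.7 and 29.7, lie on opposite flanks of the cloud.

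Counting every pooled summit, 69 of 81 ribosomal protein genes had 1 or more in the window (85.2%, interval 75.6 to 92.1%), against 8201 of 19892 other genes (41.2%). All genes together gave 41.4%. The replicate lists gave 65 of 81 (80.2%, where all genes gave 51.9%) and 69 of 81 (85.2%, where all genes gave 54.8%). Ribosomal protein genes are short, with a median length of 754 bp against 2034 bp for other genes, so their windows were shorter too, with medians of 1754 and 3031 bp. Per kb of window they held 0.743 pooled summits, against 0.155 in other genes. The difference was thus seen in spite of shorter windows. Of the pooled peaks, 40 of 103 (38.8%, interval 29.4 to 48.9%) had a summit within 100 bp in both replicates. The share of all other nuclear peaks, 30.9%, lies within that interval.

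The number of pooled summits per gene was 0 in 12 genes, 1 in 39, 2 in 23, 3 in 5 and 4 in 2. The 2 genes with 4 were rpl-3 and rpl-24.1. The 12 without a pooled summit were rpl-2, rpl-11.2, rpl-23, rpl-25.1, rpl-29, rpl-31, rpl-37, rpl-38, rpl-42, rpl-43, rps-21 and rps-25. Of these, rpl-11.2, rpl-37, rpl-38 and rpl-42 had no summit in any list. Windows of 2 ribosomal protein genes shared 5 pooled summits, 3 of them between rpl-24.1 and rps-10. The nearest start was that of the ribosomal protein gene itself in 71 of 108 gene and summit pairs.

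By place, pooled summits were in the promoters of 53 ribosomal protein genes (65.4%, where all genes gave 22.9%). They were in the gene bodies of 27 (33.3%, where all genes gave 23.9%) and the 3′ ends of 11 (13.6%, where all genes gave 4.13%). The thresholded list gave 5 promoters (6.17%, where all genes gave 1.06%), 2 gene bodies (2.47%, where all genes gave 0.871%) and 2 3′ ends (2.47%, where all genes gave 0.19%). Per kb, pooled summits numbered 0.659 in promoters, 1.04 in gene bodies and 0.730 in 3′ ends of ribosomal protein genes. In other genes the same 3 densities were 0.188, 0.133 and 0.211. The short gene bodies of ribosomal protein genes thus held more summits per kb than their promoters taken whole. This order depends on the promoter limits. The 3 steps of 200 bp from 1000 to 400 bp before the start held 0.432, 0.370 and 0.494 per kb. The step from 400 to 200 bp held 1.17 per kb, more than the gene bodies. Pooled signals in ribosomal protein genes had medians of 34.9 in promoters, 39.3 in gene bodies and 53.7 in 3′ ends, against 32.3, 31.1 and 34.2 in other genes. Among the 9 thresholded peaks the order differed, with medians of 97.7 for 5 promoter peaks, 83.8 for 2 gene body peaks and 98.8 for 2 peaks at 3′ ends.

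The densest place was just outside the window, past the gene end. Pooled summits lay within 200 bp past the end in 42 of 81 ribosomal protein genes (51.9%, interval 40.5 to 63.1%), against 1259 of 19892 other genes (6.33%). All genes together gave 6.51%. Each replicate's whole list gave the same picture, with 35 and 40 ribosomal protein genes (43.2% and 49.4%), against 7.36% and 7.49% of other genes. The 557 strongest summits gave 7 genes in replicate 1 (8.64%, against 0.493% of other genes). In replicate 2 they gave 13 (16.05%, against 0.4675%). Both sets held 4 ribosomal protein genes (4.94%). The share of other genes in both was not counted, so this number cannot be called high or low. The 42 pooled signals had a median of 55.4 (28.1 to 102.1), and 24 of the 42 summits (57.1%) had a match within 100 bp in both replicates. In steps of 200 bp, the density was 0.679 summits per kb in the last 200 bp of these genes, 2.59 in the first 200 bp past the end, 1.05 in the next and 0.123 in the one after. In other genes the same steps gave 0.211, 0.316, 0.251 and 0.180. Upstream, ribosomal protein genes had their highest density between 400 and 200 bp before the start, at 1.17 per kb, where other genes had 0.208.

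**Figure D3:**
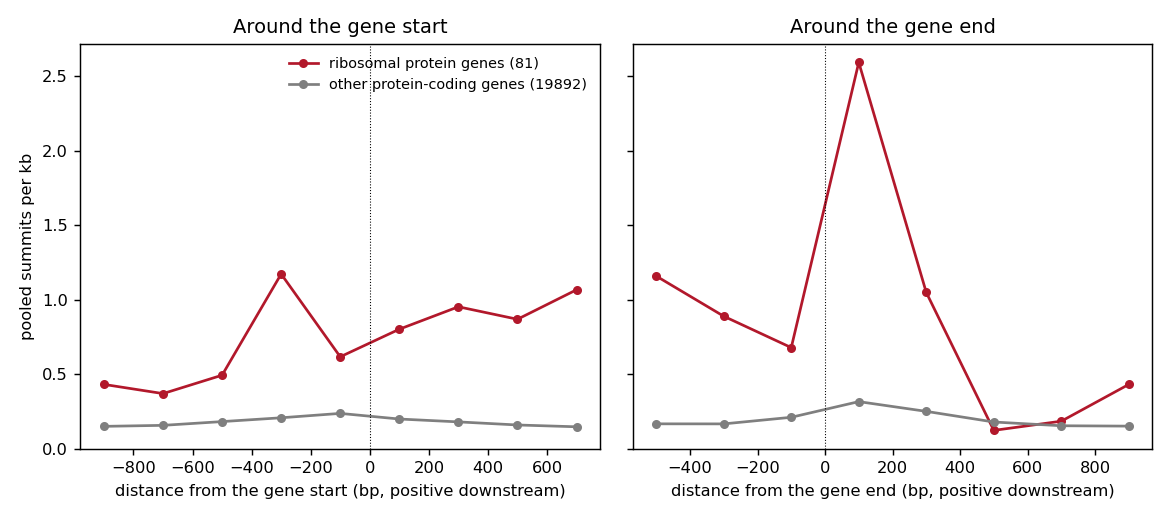
Pooled summits per kb in steps of 200 bp around the gene start (left) and the gene end (right), for the 81 ribosomal protein genes (red) and the 19892 other protein-coding genes (grey); positions before the end count only inside the gene. The red curve is highest in the first 200 bp past the gene end, at 2.59 per kb, and has a lower crest of 1.17 per kb from 400 to 200 bp before the start.

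Of the thresholded peaks, 10 had summits within 200 bp past the end of a ribosomal protein gene, each past a different gene (12.3%, interval 6.08 to 21.5%), against 95 of 19892 other genes (0.478%). Over all genes the share was 0.526%. None of these 10 genes had a thresholded summit in its window, so window and flank together held thresholded summits for 18 of the 81 genes. The 10 were rps-4, rpl-30, rpl-4, rpl-41.2, rpl-26, rps-6, rpl-31, rpl-11.1, rpl-29 and rps-25, in falling order of signal. Among them, rpl-29, rpl-31 and rps-25 had no pooled summit in the window at all.

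The strongest of these flank peaks, past rps-4 (chrIV:7083405-7083844), had signal 102.1, 71 bp past the end. Its replicate signals were 61.1 and 42.3, and a snoRNA gene was 247 bp away. The summit lay in the 5′ untranslated region of the neighbour Y43B11AR.3, 91 bp from its start, so position does not tell these genes apart. The rps-4 peak was the only flank peak of the 10 with a small RNA gene within 250 bp. The flank peak of rpl-30, whose yeast protein binds its own transcript, had signal 92.0 and replicate signals of 42.1 and 49.5, 49 bp past the end and in a coding exon of madf-10. Past rpl-4, which encodes a protein of the peptide tunnel wall, the signal was 90.1, with replicate signals of 31.9 and 59.5. The peak past rpl-41.2 had 87.9, with 59.7 and 29.7. Like that of rpl-30, the peaks of rpl-4 and rpl-41.2 had their summits in coding exons of the next gene, lmd-2 and zig-7. The ends of madf-10, lmd-2 and zig-7 were 42, 118 and 105 bp from these summits. The ends of rpl-30, rpl-4 and rpl-41.2 were slightly farther, at 49, 121 and 107 bp. Position therefore does not tell the genes of each pair apart.

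The other 6 flank summits were in no protein-coding gene, but that of rpl-29 lay 41 bp from the start of thoc-7 and that of rpl-26 lay 126 bp from the start of suf-1, so position does not tell these genes apart. That of rpl-26 had signal 78.5 (replicates 33.9 and 42.4), and that of rps-6, whose protein is phosphorylated downstream of TOR in other animals, had 78.0 (replicates 41.1 and 38.6). That of rpl-31 had 76.0 (35.3 and 40.7). That of rpl-11.1, whose protein contacts the small ribosomal RNA of the large subunit, had 75.3 (40.9 and 37.5). The rpl-11.1 flank summit lay 159 bp past the end of that gene but 111 bp from the end of pygl-1. At rpl-29 the flank signal was 74.0 (27.2 and 46.3) and at rps-25 70.8 (21.2 and 45.7). The replicates ranked the rps-25 flank peak 3977th and 322nd, the widest gap of the 10. Summits lay 49 to 159 bp past the end, and 9 of the 10 had one within 100 bp in both replicates, all but that of rpl-11.1.

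The neighbour downstream was closer to ribosomal protein genes than to other genes. The next protein-coding gene lay a median of 223 bp past the end of a ribosomal protein gene and 1104 bp past that of another gene, genes that overlap the end not counted. It was within 200 bp for 38 of 81 ribosomal protein genes (46.9%) and 15.9% of other genes. Where it was within 200 bp, 22 of 38 ribosomal protein genes had a pooled flank summit (57.9%), against 9.90% of other genes. Where it was farther, 20 of 43 had one (46.5%), against 5.65% of other genes. A start of any protein-coding gene was within 250 bp of 18 of the 42 pooled flank summits (42.9%), against 318 of 1259 at other genes (25.3%). The part of neighbouring genes in the flank summits was not tested.

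**Figure D4:**
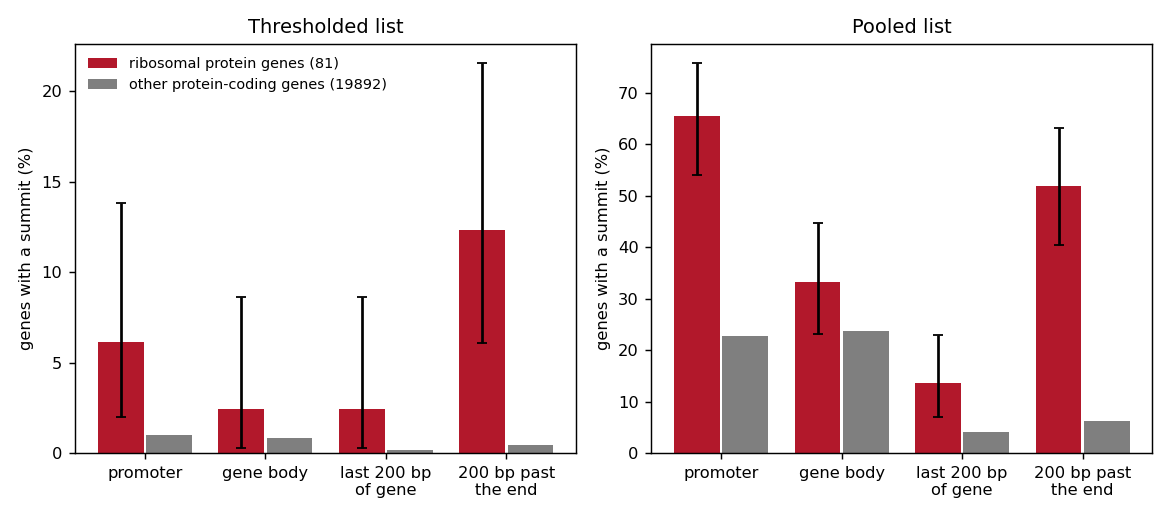
Share of genes with a summit in the promoter, gene body, last 200 bp of the gene and 200 bp past its end, for the thresholded list (left) and the pooled list (right). Red bars are the 81 ribosomal protein genes with exact 95% intervals and grey bars the 19892 other genes. Past the gene end the shares are 12.3% and 0.478% in the thresholded list and 51.9% and 6.33% in the pooled list.

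The shares of large and small subunit genes with a summit differed by less than their counting intervals. Thresholded summits were in 7 of 50 large subunit genes (14.0%, interval 5.82 to 26.7%) and 1 of 31 small subunit genes (3.23%, interval 0.0816 to 16.7%). The intervals overlap, and the count of small subunit genes became 3 with the strongest peaks of replicate 2 alone. Pooled summits were in 40 of 50 large subunit genes (80.0%) and 29 of 31 small subunit genes (93.5%). The median of the strongest pooled signal was 39.6 in large and 41.9 in small subunit genes, and pooled summits numbered 0.720 and 0.780 per kb. Past the end, 26 of 50 large subunit genes (52.0%) and 16 of 31 small subunit genes (51.6%) had a pooled summit. Small subunit genes had no thresholded promoter summit, against 5 in large subunit genes, yet the pooled promoter densities were 0.662 per kb in large and 0.655 per kb in small subunit genes.

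snoRNA genes were hosted by 13 ribosomal protein genes, 19 snoRNA genes in all, each in an intron by the annotation. Thresholded summits were in the windows of 3 of the 13 hosts, rpl-15, rpl-7 and rps-13 (23.1%, interval 5.04 to 53.8%), and of 5 of 68 non-hosts (7.35%, interval 2.43 to 16.3%). Among other genes that host snoRNA genes the share was 29 of 146 (19.9%). Pooled summits were in 12 of 13 hosts (92.3%) and 57 of 68 non-hosts, with a median strongest signal of 46.7 in hosts and 39.5 in non-hosts. Other genes that host snoRNA genes had pooled summits in 127 of 146 (87.0%), with a median strongest signal of 44.9. The intervals of hosts and non-hosts overlap.

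The summits of hosts were not all at the snoRNA genes. Of the 19 snoRNA genes, 11 had a pooled summit within 250 bp and 3 a thresholded one, those in rpl-7, rps-13 and rps-4. The summit near the snoRNA gene of rps-4 was that of its flank peak, 71 bp past the gene end and outside the window. The same shares over all snoRNA genes were not counted. In rpl-15 the strong summit lay upstream of the gene, 568 bp from the nearer of its 2 snoRNA genes, and a weaker one of signal 42.1 lay inside K11H12.12. The strongest window signals of the other hosts were 53.7 at rps-12, 51.0 at rps-4, 47.0 at rps-29, 46.4 at rps-23, 40.7 at rpl-24.1, 37.9 at rpl-7A, 33.1 at rpl-26, 32.4 at rpl-6 and 29.0 at rpl-4. At rps-29 the pooled summit was 18 bp from the snoRNA gene B0412.7. Replicate summits of 28.8 and 27.3 lay 15 and 26 bp from B0412.7, the second on its far side. The replicate summits nearest the pooled summit were 28.8 at 3 bp in replicate 1 and 24.3 at 92 bp in replicate 2. At rpl-2, the host without a pooled summit in its window, the snoRNA gene B0250.19 was 773 bp from the nearest pooled summit.

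**Figure D5:**
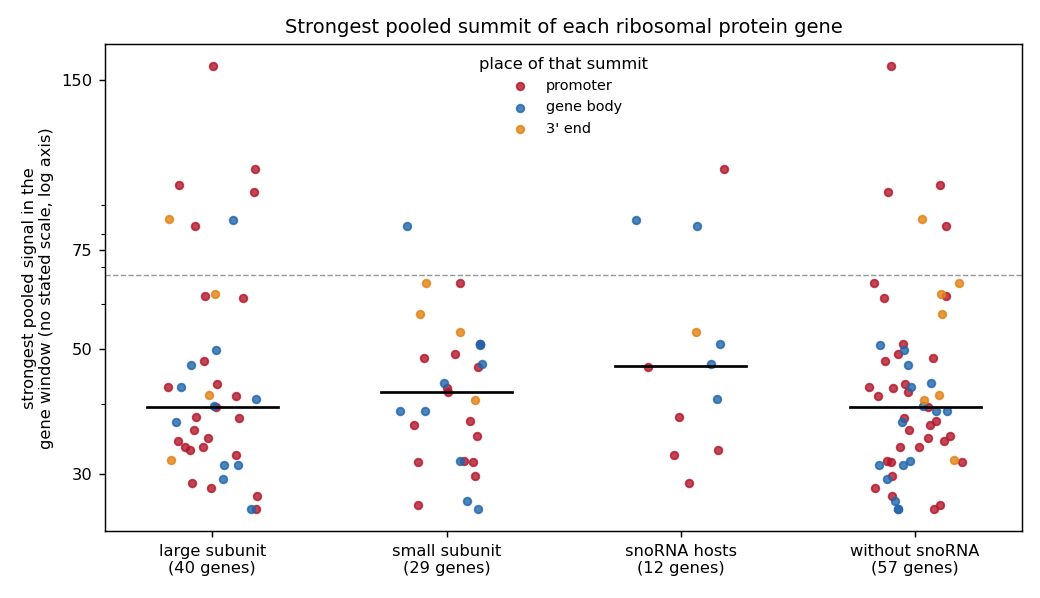
Strongest pooled signal in the gene window of each of the 69 ribosomal protein genes that had one, on a log axis without a stated scale, by subunit and by snoRNA host; every gene appears once by subunit and once by host. Black bars are medians, colours give the place of the summit, and the dashed line is the lowest thresholded signal, 67.7. Medians are 39.6 and 41.9 for the large and small subunit, and 46.7 and 39.5 for hosts and non-hosts.

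By chromosome, pooled summits were in 24 of 25 ribosomal protein genes on chromosome I (42.9% of other genes there), 8 of 10 on II (40.2%), 15 of 18 on III (48.7%) and 16 of 18 on IV (41.0%). They were in 6 of 8 on V (34.9% of other genes there) and 0 of 2 on X (45.4%). On V, replicate 1 gave 7 of the 8 genes (interval 47.4 to 99.7%) and replicate 2 gave 3 (8.52 to 75.5%). Other genes there gave 45.1% and 48.9%. On IV, replicate 1 gave 13 of the 18 (46.5 to 90.3%) and replicate 2 gave 17 (72.7 to 99.9%). Other genes there gave 50.9% and 52.9%. On both chromosomes the intervals of the replicates overlap, so these few genes do not show a replicate difference by chromosome.

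Lists of related genes were counted in the same way. Of ubl-1, ubq-2 and rack-1, which encode ribosomal proteins fused to ubiquitin or a ubiquitin-like protein and a ribosome-bound scaffold, none had a thresholded summit, and ubq-2 and rack-1 had pooled summits of at most 35.9 and 31.0. Of 70 genes for mitochondrial ribosomal proteins, 1 had a thresholded summit (1.43%) and 34 a pooled one (48.6%). The 1 was mrpl-23, with signal 162.9 at 969 bp before the start, 30 bp from the snoRNA gene T08B2.13, and replicate signals of 77.6 and 84.0. All 6 eef- genes, for translation elongation factors, had pooled summits and none a thresholded one.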

How the data were processed

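Each deposited peak carries a signal and a −log10 q value from the authors, per the file headers and descriptions; the q value was the same for all thresholded peaks and was not used. Per the labels, the 2 samples are biological replicates of 1 group. No source used here names the aligner or the peak caller. The ce10 lists, a listed but undescribed source file and the possible control named in the labels were not used here.

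Summits were assigned with Python 3.11.15, numpy 2.4.6, pandas 2.3.3 and scipy 1.17.1, using the Ensembl release 115 annotation, after the assignment had been tested on simulated summits. Shares have exact Clopper-Pearson 95% intervals; no test was run, since there is 1 group. The members, lists and motifs were chosen with earlier results of these data known. Named genes are the members with a thresholded summit, the 10 strongest without, snoRNA hosts with a pooled summit (up to 10), members without a pooled summit, and thresholded genes of related lists. The genes with a peak past their end, the 2 weakest snoRNA hosts, those named for the shared words and the shared words themselves were chosen after their values were seen, as were the counts past the gene end. Alternatives were other windows, place limits, matching distances, a stricter list, single replicates and peaks away from small RNA genes. Sequences of thresholded peaks are given only where they hold the shared word.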

Additional observations from a re-analysis of the deposited data

How the results depend on the processing

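Of 109 alternative values, 87 stayed within 1.5 times a count, within a share's interval or within the replicates' spread of a median, and 22 moved. Counting to 200 bp past the gene end gave 18 ribosomal protein genes with a thresholded summit (14 large, 4 small, 6 snoRNA hosts). That was 22.2%, where all genes gave 2.56%. Counting any overlap of a peak gave 20 (15, 5 and 6), or 24.7%, where all genes gave 2.73%. From 2000 bp upstream the count was 10 (12.35%), 2 of them of the small subunit, where all genes gave 2.71%. The stronger part of the thresholded list, its upper ranks by signal, gave 4 genes (4 large, 0 small, 1 host). That was 4.94%, where all genes gave 0.956%. Without peaks at small RNA genes the count was 6 (7.41%), where all genes gave 0.931%. There the hosts fell to 1 and the small subunit to 0. The splits by subunit and host in both settings were added after the data were seen. The strongest peaks of a single replicate gave 11 genes either way, 8 to 9 large, 2 to 3 small and 2 to 3 hosts. That was 13.6%, where all genes gave 2.13 to 2.16%. Pooled counts ranged from 62 to 75 of 81 genes over the windows tried and from 65 to 69 with a single replicate. All genes gave 37.4 to 48.0% over those windows and 51.9 to 54.8% with a single replicate. Taking the last 100 bp as the 3′ end left 4.63% of pooled summits there. The median of summed signals was 48.3, against 40.6 for the strongest summit, and the median percentile of the strongest summit, 80.2 in the pooled list, was 86.0 to 87.6 in the single replicates. Within 250 bp, 63 of 103 pooled peaks matched in both replicates. Groups of 13 to 31 genes leave wide intervals. No paired analysis was possible because there is 1 group.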
